A study of Mus with 30 samples.

Results

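The effect of ethoxysanguinarine on the hearts of angiotensin II (Ang II) infused mice was examined by RNA-seq in 5 mice of the Ang II + ETH group and 5 mice of the Ang II group, 10 of the 30 libraries sequenced. The members are these 10 libraries, chosen by the group named in their labels. Ang II is the effector peptide of the renin-angiotensin system. It constricts vessels and raises blood pressure, and its prolonged infusion in rodents is a common model of hypertension with cardiac hypertrophy and fibrosis. Ethoxysanguinarine (ETH) is an alkaloid derived from sanguinarine, a benzophenanthridine found in plants of the poppy family.

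All mice were of the C57BL/6 strain. The study's methods describe the Control, Ang II and gastrodin mice as young adult males and do not describe the ETH mice. The Ang II + ETH mice were infused with Ang II at 500 ng/kg/min for 28 days and given ETH at 5 mg/kg/day, and the Ang II mice had the same infusion with saline in place of a drug. For context, levels are also given in 3 groups with the same infusion and another drug, namely baicalin (BAI) at 5 mg/kg/day, gastrodin (GAS) at 5 mg/kg/day and valsartan (VAL), a blocker of the Ang II type 1 receptor, at 10.4 mg/kg/day, and in Control mice, which had saline for both. Each group has 5 mice, numbered within the group in the order of their records. The sources used here do not name the route by which ETH was given. The RNA came from bulk cardiac tissue, for which the study's methods name the left part of a heart sectioned lengthwise, so that fewer cells of a type and less RNA per cell cannot be told apart.

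No unit is stated with the values, which were read as FPKM, the level of a transcript scaled for its length and for the size of the library. They are not counts, so the depth of each library is unknown, and precision rests on the spread between mice. The transcripts carry Ensembl identifiers or names of models merged by the authors (MERGE, a locus number and a model number). None of the 36503 identifiers was paired with a gene name in the sources used here (0 matched). Transcripts are therefore named by identifier, no role is given to any, and cell type markers and pathway lists were not analysed. Of 29651 transcripts listed for both groups, the 18242 that reached 1 FPKM in 5 or more of the 10 mice were tested. Differences are on the log2(FPKM + 1) scale, Ang II + ETH minus Ang II, which understates the change of low transcripts.

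The libraries of the groups were alike in broad measures. On average 18551 ± 705 transcripts were at 1 FPKM or more in Ang II + ETH hearts, and 18019 ± 533 in Ang II hearts (SD, n = 5 each, exact permutation test over all assignments of 5 and 5, two-sided p = 0.230, adjusted p = 0.690 over 3 measures). These counts run over lists that differ between the groups. Over the transcripts listed in all 30 libraries the means were 17841 ± 624 and 17896 ± 527 (SD, n = 5 each, exact permutation p = 0.849). The 100 highest transcripts held 71.3% ± 3.21 of the summed FPKM in Ang II + ETH hearts and 71.6% ± 1.40 in Ang II hearts (exact permutation p = 0.881, adjusted p = 0.881). One Ang II + ETH library was the lowest of its group in summed FPKM and in its highest transcript. Mouse 5 of the Ang II + ETH group had a summed FPKM of 562189, whereas the other Ang II + ETH mice had 605045 to 652870. Its highest transcript was at 57445 FPKM, against 102239 to 132832 in the others. Sums nearly as low as that of this mouse were found in other groups, at 578476 in GAS mouse 1 and 585451 in Control mouse 5. The correlation of log2 levels across transcripts averaged 0.829 within the Ang II + ETH group, 0.829 within the Ang II group and 0.825 between them, and the highest was 0.840, so no library was a copy of another.

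Between Ang II + ETH and Ang II hearts, 24 transcripts (0.132% of those tested) differed at an adjusted p under 0.05 in limma. Of these, 13 were higher (0.0713%) and 11 were lower (0.0603%) in Ang II + ETH hearts. For all 24 the lowest mouse of one group lay above the highest mouse of the other. Groups that did not overlap were also seen without passing the adjusted threshold, as 203 of all tested transcripts (1.11%) were higher in every Ang II + ETH mouse than in any Ang II mouse, and 195 (1.07%) were lower in every one. With a fold of at least 2 in FPKM + 1 and an unadjusted p under 0.05 there were 176 higher (0.965%) and 166 lower transcripts (0.91%). A listed 0 in some mouse was found for 39.5% of these 342, for 14.2% of all tested transcripts and for 12.5% of the 24.

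The 24 transcripts were mostly of low to middling level, as were the tested transcripts at large. Of the 13 higher ones, 3 had a mean under 2 FPKM over the 10 mice, 8 had 2 to under 10, and 2 had 10 to under 100. The 11 lower ones were 1, 5 and 4 in these classes, with 1 at 100 FPKM or more. All tested transcripts numbered 6137, 8821, 2918 and 366 in the same classes, from lowest to highest. Of the 14135 Ensembl transcripts tested, 9 were higher and 9 were lower, and of the 4107 merged models 4 were higher and 2 were lower. Among the 20 transcripts with the highest mean in Ang II hearts, from 2410 to 108034 FPKM, none reached an unadjusted p under 0.05, and their smallest adjusted p was 0.623 in limma. Their log2 differences ranged from -3.03 to 0.285, so the absence of calls does not show that their levels were equal. In the plot of difference against level, the 24 lie to the left of the most abundant transcripts.

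**Figure D1:**
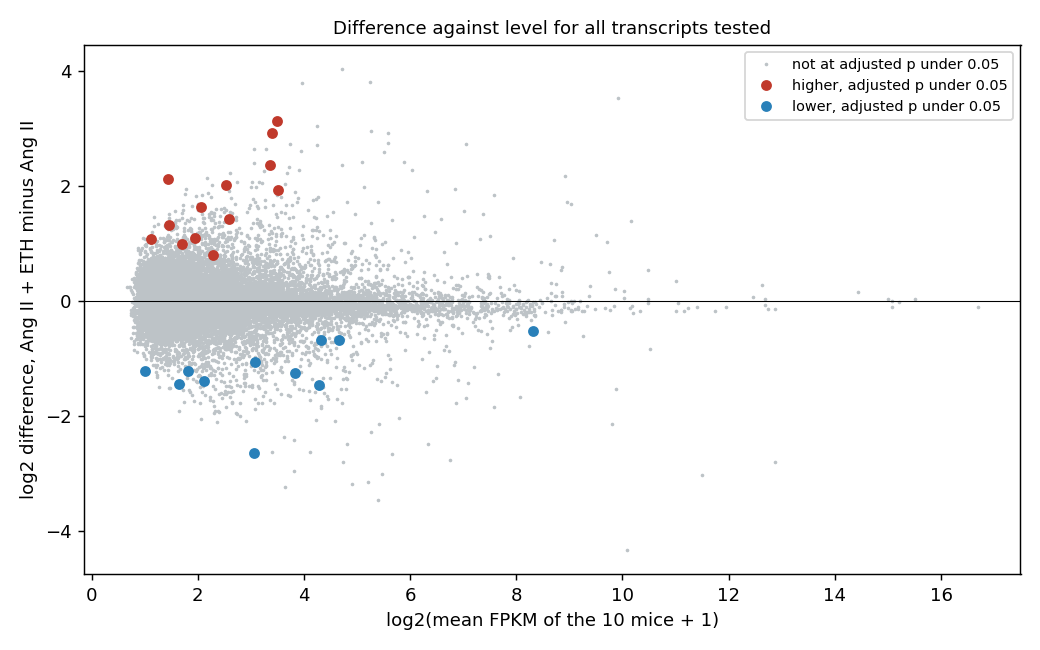
Each point is 1 of the 18242 transcripts tested, with log2 of the mean FPKM of the 10 mice plus 1 on the horizontal axis and the log2 difference, Ang II + ETH minus Ang II, on the vertical axis. Red points are the 13 transcripts higher and blue points the 11 lower at an adjusted p under 0.05 (limma). Many grey points have larger differences than these and do not pass.

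The transcripts with the smallest p among those that rose were between 0.884 and 2.89 FPKM, or listed at 0, in every Ang II heart. ENSMUST00000167487 had the largest difference of the 13. Its level was 18.9, 22.1, 13.6, 25.3 and 15.7 FPKM in Ang II + ETH mice 1 to 5, against 1.48, 1.03, 1.24, 1.28 and 1.33 FPKM in Ang II mice 1 to 5. The means were 19.1 ± 4.72 FPKM and 1.27 ± 0.162 FPKM (SD, n = 5 each), with a log2 difference of 3.12 (SE 0.16, 95% interval 2.76 to 3.48, limma adjusted p = 7.22e-05). The lowest Ang II + ETH mouse was thus far above the highest Ang II mouse. In the other groups, however, few high mice stood among low ones. The levels were 33.5, 1.21, 27.9, 0.816 and 1.66 FPKM in the BAI group, 1.74, 2.18, 33.9, 1.70 and 0.977 FPKM in the GAS group, 1.27, 2.49, 16.3, 0.425 and 0.452 FPKM in the VAL group and 1.18, 42.0, 3.08, 1.73 and 0.323 FPKM in Control. Of these 20 mice, 5 reached the Ang II + ETH range, and they came from each of the 4 groups. The difference from Control was 2.21 (adjusted p = 0.432), and that from the mean of the 3 other drug groups 2.15 (adjusted p = 0.676, limma for both).

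ENSMUST00000032946 showed the same arrangement. It stood at 15.4, 19.5, 12.9, 15.2 and 18.0 FPKM in Ang II + ETH mice and at 2.49, 2.89, 1.63, 2.26 and 2.46 FPKM in Ang II mice, and the groups did not overlap. The means were 16.2 ± 2.56 FPKM and 2.35 ± 0.460 FPKM (SD, n = 5 each), with a log2 difference of 2.36 (SE 0.14, 95% interval 2.05 to 2.67, limma adjusted p = 0.000137). None of the 5 VAL mice reached the Ang II + ETH range, since they lay between 1.92 and 4.82 FPKM. In the other groups 2 BAI mice, 1 GAS mouse and 1 Control mouse reached it, and the medians were 12.3 FPKM in the BAI group, 2.46 FPKM in the GAS group and 2.57 FPKM in Control. For ENSMUST00000059018, the levels were 9.58, 9.60, 6.69, 6.55 and 9.06 FPKM in Ang II + ETH mice, against 0.990, 0.884, 1.37, 1.47 and 1.70 FPKM in Ang II mice. Its means were 8.29 ± 1.54 FPKM and 1.28 ± 0.340 FPKM (SD, n = 5 each), with a log2 difference of 2.02 (SE 0.16, 95% interval 1.68 to 2.37, limma adjusted p = 0.000496). Again the groups were apart by several times the spread within either. Of the 20 mice in the other groups, 7 were within or above the Ang II + ETH range and 8 within or below the Ang II range, with 5 in between, and 3 of the 7 belonged to the BAI group.

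The merged model MERGE.10767.4 was listed at 0 in all 5 Ang II mice, whereas Ang II + ETH mice had 4.64, 2.57, 3.95, 3.48 and 2.47 FPKM (limma adjusted p = 0.000372). Since 1 group was at 0 throughout and counts are not known, no fold is given. Only Ang II + ETH mice reached 1 FPKM in this comparison, so the model passed the filter through that group alone. The absent spread in the Ang II group also lowers the spread used by the test. A listed 0 was common for this model. It was found in 3 of 5 BAI mice, 2 of 5 GAS mice, 3 of 5 VAL mice and 2 of 5 Control mice, while the highest mice of these groups had 4.30, 10.7, 3.34 and 2.76 FPKM. The deposited list for Ang II held no transcript under 0.5 on average in both Ang II and Control. At 0 in Ang II, this model was therefore listed, and could be tested, only through its Control mean of 1.47 FPKM. That some Control mice were high was thus fixed by the listing and is not a result.

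The remaining 4 of the 8 transcripts shown with every mouse had weaker tests or smaller differences. ENSMUST00000071555 had 5.19, 27.8, 15.8, 20.3 and 20.1 FPKM in Ang II + ETH mice, against 1.09, 1.35, 1.68, 0.662 and 1.51 FPKM in Ang II mice. The means were 17.8 ± 8.29 FPKM and 1.26 ± 0.398 FPKM (SD, n = 5 each), with a log2 difference of 2.92 (SE 0.37, 95% interval 2.09 to 3.74, limma adjusted p = 0.0188). Mouse 1 of the Ang II + ETH group was well below the other 4, but still above all Ang II mice. In Control the levels were 10.8, 16.9, 0.684, 2.03 and 13.3 FPKM, so that 3 Control mice were also in the Ang II + ETH range. ENSMUST00000025050 had 19.6, 19.6, 10.6, 19.1 and 15.9 FPKM in Ang II + ETH mice, against 1.89, 4.83, 4.17, 3.62 and 4.24 FPKM in Ang II mice, and its means of 17.0 ± 3.85 FPKM and 3.75 ± 1.12 FPKM (SD, n = 5 each) gave a log2 difference of 1.93 (SE 0.23, 95% interval 1.42 to 2.43, limma adjusted p = 0.0122). Of the 20 mice of the other groups, 10 were in or above the Ang II + ETH range, 5 in or below the Ang II range and 5 between. No Control mouse was as low as the Ang II range, as Control had 8.76, 9.99, 4.89, 24.1 and 26.6 FPKM, and 4 of 5 GAS mice and 3 of 5 BAI mice were in or above the Ang II + ETH range. The log2 difference of Ang II + ETH from Control was 0.39 (limma adjusted p = 0.852), and that of Ang II from Control was -1.54 (unadjusted p = 0.00441, adjusted p = 0.359 in limma). The latter uses the Ang II mice whose low levels helped to choose this transcript, which favours a difference in that direction.

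The model MERGE.18710.2 had 4.89, 4.82, 4.87, 5.84 and 6.04 FPKM in Ang II + ETH mice, against 2.06, 1.36, 0.472, 0.619 and 0.960 FPKM in Ang II mice. The means were 5.29 ± 0.594 FPKM and 1.09 ± 0.639 FPKM (SD, n = 5 each), with a log2 difference of 1.63 (SE 0.20, 95% interval 1.19 to 2.08, limma adjusted p = 0.0156). Control mice had 5.45, 6.26, 0.933, 3.44 and 7.06 FPKM, 3 of them in or above the Ang II + ETH range and 1 in the Ang II range. ENSMUST00000225306 had 11.2, 5.21, 9.41, 6.23 and 7.20 FPKM in Ang II + ETH mice, against 2.37, 2.05, 2.79, 2.02 and 1.84 FPKM in Ang II mice. Its means were 7.86 ± 2.45 FPKM and 2.21 ± 0.375 FPKM (SD, n = 5 each), with a log2 difference of 1.43 (SE 0.19, 95% interval 1.00 to 1.85, limma adjusted p = 0.0219). Here most mice of the other groups, 11 of 20, were in or above the Ang II + ETH range and 3 were in or below the Ang II range. The 5 BAI mice were all above the Ang II range, from 4.67 to 8.60 FPKM.

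**Figure D2:**
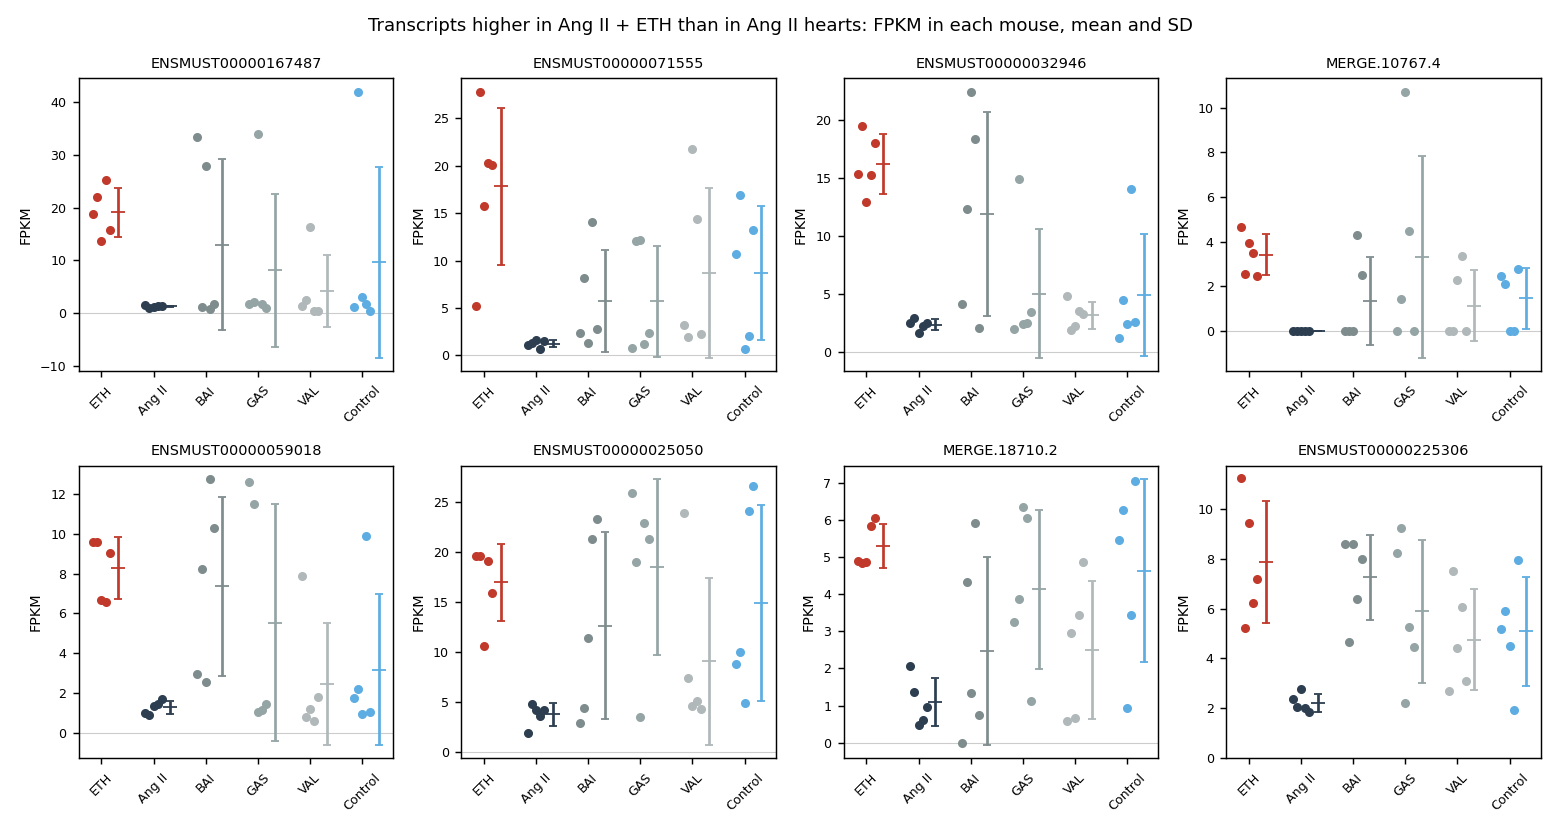
FPKM (vertical axes, linear, a separate scale for each transcript) of 8 of the 13 transcripts higher in Ang II + ETH than in Ang II hearts, in the Ang II + ETH (ETH), Ang II, baicalin (BAI), gastrodin (GAS), valsartan (VAL) and Control groups. Each point is 1 mouse and the bar gives the mean and SD of 5 mice. The Ang II + ETH points are above all Ang II points in each panel, and the other 4 groups have points at both levels, as in ENSMUST00000167487, where 5 of 20 mice reach the Ang II + ETH range.

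The other 5 higher transcripts stayed under 7 FPKM in the groups compared. ENSMUST00000199018 lay between 4.08 and 6.08 FPKM (median 5.25) in Ang II + ETH mice and between 2.27 and 2.94 FPKM (median 2.47) in Ang II mice, with a log2 difference of 0.80 (SE 0.11, 95% interval 0.55 to 1.05, limma adjusted p = 0.0345). It was the one among the 13 for which the fewest of the 20 mice in the other groups, 2, reached the Ang II + ETH range, 1 GAS mouse and 1 Control mouse. ENSMUST00000068792 lay between 3.82 and 5.09 FPKM in Ang II + ETH mice and between 0.698 and 1.92 FPKM in Ang II mice (log2 difference 1.09, limma adjusted p = 0.0424), and Control mice spread on both sides, from 0 to 9.69 FPKM. ENSMUST00000107609 had 1.29 to 2.50 FPKM in Ang II + ETH mice and 0.258 to 0.524 FPKM in Ang II mice (log2 difference 1.07, limma adjusted p = 0.0173). It passed the filter through the Ang II + ETH mice alone, as no Ang II mouse reached 1 FPKM. It was not listed for the VAL group, and 1 Control mouse, 2 BAI mice and 1 GAS mouse reached the Ang II + ETH range. With a mean of 0.387 FPKM in Ang II, it was listed there only through its Control mean of 1.05 FPKM. A Control level above the Ang II level was thus fixed by the listing.

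Both remaining higher transcripts were merged models. MERGE.19959.1 had 2.83 to 3.98 FPKM in Ang II + ETH mice and 0.793 to 1.52 FPKM in Ang II mice (log2 difference 0.99, limma adjusted p = 0.0219), and 10 of the 20 other mice were in or above the Ang II + ETH range. MERGE.10464.2 had 2.66 to 3.09 FPKM in Ang II + ETH mice and 0 to 1.20 FPKM in Ang II mice (log2 difference 1.32, limma adjusted p = 0.0424). In the VAL group this model was low in every mouse (0.665 to 1.55 FPKM), whereas the BAI group had 3.21, 4.66, 0, 4.47 and 2.12 FPKM.

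Of the 11 transcripts that fell, ENSMUST00000079125 had the largest difference. Its level was 0.511, 2.15, 0.514, 1.95 and 1.55 FPKM in Ang II + ETH mice, against 14.3, 17.4, 13.7, 13.9 and 7.19 FPKM in Ang II mice. The means were 1.33 ± 0.782 FPKM and 13.3 ± 3.74 FPKM (SD, n = 5 each), with a log2 difference of -2.64 (SE 0.29, 95% interval -3.28 to -2.00, limma adjusted p = 0.00859). It was also lower than in Control, where the mice had 13.3, 21.2, 10.7, 16.1 and 6.63 FPKM and none reached the Ang II + ETH range. The log2 difference from Control was -2.63 (SE 0.32, limma adjusted p = 0.0161), a comparison that shares the Ang II + ETH mice with the first. Between Ang II and Control the difference was 0.01 (SE 0.30). Against the 3 other drug groups the difference was -1.96 (limma adjusted p = 0.279), and here 2 BAI mice and 1 GAS mouse were as low as the Ang II + ETH mice. The levels were 18.2, 5.65, 2.06, 2.03 and 3.74 FPKM in BAI mice, 2.01, 2.88, 17.1, 16.0 and 12.2 FPKM in GAS mice and 5.05, 12.9, 17.4, 16.1 and 14.4 FPKM in VAL mice. ENSMUST00000079125 passed at an adjusted p under 0.05 in all 19 alternative settings tried.

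MERGE.11353.12 was low in the Ang II + ETH group and in no other. It had 1.04, 0.332, 0.674, 0.932 and 0.472 FPKM in Ang II + ETH mice, against 4.25, 3.11, 4.19, 3.95 and 2.55 FPKM in Ang II mice. The means were 0.690 ± 0.299 FPKM and 3.61 ± 0.750 FPKM (SD, n = 5 each), with a log2 difference of -1.45 (SE 0.17, 95% interval -1.83 to -1.07, limma adjusted p = 0.0122). None of the 20 mice of the other groups reached the Ang II + ETH range, 18 were in or above the Ang II range and 2 lay between. BAI mice had 6.25, 3.48, 1.80, 2.67 and 2.88 FPKM, GAS mice 3.64, 5.46, 9.95, 3.46 and 3.62 FPKM, VAL mice 2.85, 3.69, 3.43, 3.20 and 3.09 FPKM and Control mice 3.47, 4.80, 2.01, 3.01 and 3.02 FPKM. This was 1 of the 2 transcripts of 22858 tested (0.00875%) that differed from the mean of the 3 other drug groups at an adjusted p under 0.05 (log2 difference -1.49, SE 0.20, limma adjusted p = 0.0176). It also differed from Control (-1.32, SE 0.20, limma adjusted p = 0.0314). The 3 comparisons share the Ang II + ETH mice. Over 16 alternative settings its adjusted p against Ang II lay between 0.00972 and 0.0506 (limma), and the highest was without mouse 5 of the Ang II + ETH group. The difference from the other drug groups did not pass without Ang II + ETH mouse 2, 3 or 5 (limma adjusted p = 0.0815, 0.110 and 0.0736). That from Control passed in 1 of the 10 fits with 1 mouse left out, where the adjusted p lay between 0.0292 and 0.0837 (limma).

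ENSMUST00000030623 had 4.87, 4.81, 3.67, 4.12 and 4.84 FPKM in Ang II + ETH mice, against 10.9, 11.1, 9.11, 10.6 and 10.2 FPKM in Ang II mice. The means were 4.46 ± 0.540 FPKM and 10.4 ± 0.793 FPKM (SD, n = 5 each), with a log2 difference of -1.06 (SE 0.10, 95% interval -1.29 to -0.84, limma adjusted p = 0.00313). Control resembled the Ang II group, as 4 of 5 Control mice were in or above the Ang II range and the mean was 10.7 ± 2.98 FPKM (SD, n = 5). The log2 difference from Control was -1.06 and did not pass the adjusted threshold (limma adjusted p = 0.0652). In ENSMUST00000031341, the levels were 8.71, 9.05, 7.77, 10.6 and 11.1 FPKM in Ang II + ETH mice, against 27.4, 29.1, 29.3, 28.5 and 23.9 FPKM in Ang II mice. Its means were 9.44 ± 1.37 FPKM and 27.6 ± 2.20 FPKM (SD, n = 5 each), with a log2 difference of -1.46 (SE 0.11, 95% interval -1.70 to -1.22, limma adjusted p = 0.000421). The other groups held few intermediate mice. BAI mice had 10.7, 6.97, 8.09, 27.9 and 8.77 FPKM, VAL mice 10.9, 10.6, 8.80, 33.4 and 12.2 FPKM and Control mice 25.2, 30.8, 6.61, 7.97 and 29.3 FPKM, and GAS mice were all well above the Ang II + ETH range, from 16.8 to 29.5 FPKM. Of the 20, 9 were in or below the Ang II + ETH range, 8 in or above the Ang II range and 3 between.

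ENSMUST00000211509 and ENSMUST00000032071 were in Ang II + ETH hearts at levels that were also common in Control. ENSMUST00000211509 had 1.16, 0.808, 1.05, 0.982 and 1.498 FPKM in Ang II + ETH mice, against 3.29, 3.20, 4.43, 4.74 and 3.90 FPKM in Ang II mice (means 1.10 ± 0.257 and 3.91 ± 0.680 FPKM, SD, n = 5 each), with a log2 difference of -1.22 (SE 0.14, 95% interval -1.53 to -0.92, limma adjusted p = 0.0101). In Control, 3 of 5 mice were in or below the Ang II + ETH range, the median being 1.12 FPKM, and 4 of 5 GAS mice were below it. All 5 VAL mice were in or above the Ang II range (3.52 to 6.78 FPKM). ENSMUST00000032071 had 1.19, 1.19, 1.96, 1.64 and 0.886 FPKM in Ang II + ETH mice, against 3.25, 6.26, 5.03, 5.86 and 5.83 FPKM in Ang II mice (means 1.37 ± 0.423 and 5.25 ± 1.20 FPKM, SD, n = 5 each), with a log2 difference of -1.39 (SE 0.18, 95% interval -1.80 to -0.98, limma adjusted p = 0.0219). Its Control mice had 1.24, 0, 5.44, 2.35 and 0.550 FPKM. The log2 difference of Ang II + ETH from Control was -0.02 (limma adjusted p = 0.995), and that of Ang II from Control 1.37 (unadjusted p = 0.0113, adjusted p = 0.435 in limma). Here too the Ang II mice are those whose high levels helped to choose the transcript.

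ENSMUST00000142704 was the lowest of the 11. It had 0, 0.683, 0.120, 0 and 0.271 FPKM in Ang II + ETH mice, against 1.88, 1.49, 1.39, 1.70 and 2.44 FPKM in Ang II mice, with a log2 difference of -1.21 (SE 0.18, 95% interval -1.60 to -0.82, limma adjusted p = 0.0414). It was listed at 0 in 2 Ang II + ETH mice and in 1 BAI mouse, 1 VAL mouse and 1 Control mouse. It passed the filter through the Ang II mice alone, as no Ang II + ETH mouse reached 1 FPKM. MERGE.15536.7 was tightly grouped. It had 8.74, 7.22, 7.12, 7.19 and 6.97 FPKM in Ang II + ETH mice, against 19.4, 19.8, 17.9, 18.1 and 20.2 FPKM in Ang II mice. The means were 7.45 ± 0.730 FPKM and 19.0 ± 1.04 FPKM (SD, n = 5 each), with a log2 difference of -1.25 (SE 0.09, 95% interval -1.44 to -1.06, limma adjusted p = 0.000324). The Control mice were split, as they had 16.2, 21.6, 0, 0 and 16.7 FPKM. All 5 GAS mice lay between the groups, at 10.5 to 15.5 FPKM.

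**Figure D3:**
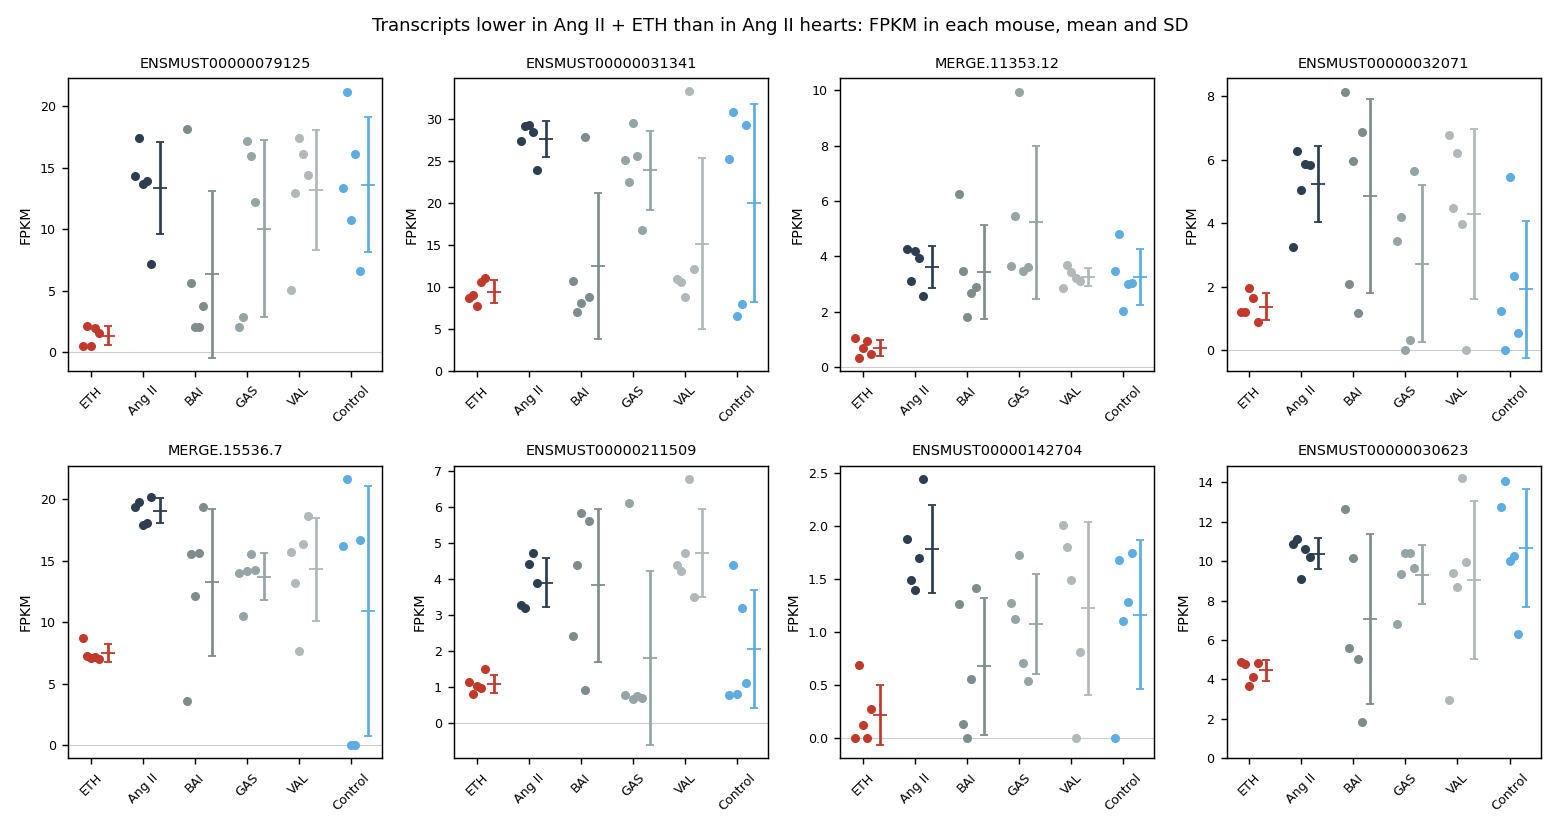
FPKM (vertical axes, linear, a separate scale for each transcript) of 8 of the 11 transcripts lower in Ang II + ETH than in Ang II hearts, in the Ang II + ETH (ETH), Ang II, baicalin (BAI), gastrodin (GAS), valsartan (VAL) and Control groups. Each point is 1 mouse and the bar gives the mean and SD of 5 mice. In MERGE.11353.12 the Ang II + ETH points, 0.332 to 1.04 FPKM, are below every point of the other 5 groups, while in the other 7 panels mice of other groups are as low as the Ang II + ETH mice.

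The last 3 of the lower transcripts changed by less than the others. ENSMUST00000042834 lay between 235 and 280 FPKM (median 264) in Ang II + ETH mice and between 357 and 399 FPKM (median 363) in Ang II mice, with a log2 difference of -0.52 (SE 0.07, 95% interval -0.68 to -0.37, limma adjusted p = 0.0219). The mean was 260 ± 20.96 FPKM in the Ang II + ETH group, 284 ± 44.3 FPKM in the BAI group, 330 ± 15.5 FPKM in the GAS group, 351 ± 23.9 FPKM in the VAL group and 389 ± 55.6 FPKM in Control (SD, n = 5 each). The means of the BAI, GAS and VAL groups thus lay between those of Ang II + ETH and Ang II (374 ± 19.5 FPKM, SD, n = 5). Of the 20 mice of the other groups, 12 lay between the 2 ranges, namely 3 BAI, 5 GAS, 3 VAL and 1 Control mouse. In addition 2 BAI mice were in or below the Ang II + ETH range and 2 VAL mice in or above the Ang II range. ENSMUST00000202722 had means of 14.3 ± 1.02 FPKM in Ang II + ETH hearts and 23.7 ± 2.53 FPKM in Ang II hearts (SD, n = 5 each, log2 difference -0.68, limma adjusted p = 0.0239). The corresponding means of ENSMUST00000034552 were 18.4 ± 2.61 FPKM and 29.98 ± 1.82 FPKM (SD, n = 5 each, log2 difference -0.69, limma adjusted p = 0.047). In ENSMUST00000202722, 14 of 20 mice of the other groups lay between the groups compared, and in ENSMUST00000034552 12 did. Both had the BAI group nearest to Ang II + ETH, at 16.0 ± 3.28 FPKM and 19.5 ± 3.12 FPKM (SD, n = 5). When the libraries were rescaled to the same total, the log2 differences of ENSMUST00000042834, ENSMUST00000202722 and ENSMUST00000034552 were -0.47, -0.63 and -0.64, and none passed (limma adjusted p = 0.198, 0.139 and 0.223).

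Among the abundant transcripts, those lower in Ang II + ETH hearts outnumbered those higher, by a margin that depended on the scaling. Of 366 transcripts with a mean of 100 FPKM or more, at an unadjusted p under 0.05 there were 59 lower and 7 higher ones, and the median log2 difference was -0.10, whereas among the 6137 transcripts with a mean under 2 FPKM 185 were lower and 291 higher, with a median of 0.03. Over all tested transcripts 740 were higher (4.06%) and 772 lower (4.23%) at this p, so that 48.9% of these were higher. This balance moved with the scaling. After rescaling to the same total 845 were higher and 499 lower (62.9% higher), and in the class of 100 FPKM or more 6 were higher and 11 lower, with a median log2 difference of -0.05. After quantile normalization the numbers in that class were 14 and 21 and the median was -0.01, with 50.3% higher over all transcripts. Without mouse 5 of the Ang II + ETH group, which had the low summed FPKM, 5 of this class were higher and 68 lower. Over all transcripts, 590 were then higher and 899 lower (39.6% higher).

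For nearly all of the 24 transcripts, the hearts of the other groups were found at both levels. For the 23 listed in all 30 libraries, the range of the Ang II + ETH mice and that of the Ang II mice were set against the 20 mice of the other 4 groups. As a median over the 23, 6 of the 20 mice were in or beyond the Ang II + ETH range, 8 in or beyond the Ang II range and 6 between. In 22 of the 23 there were mice on both sides, the exception being MERGE.11353.12. The same was seen for the 374 other transcripts whose groups did not overlap and that were listed in all libraries, where 370 had mice on both sides and the medians were 10, 8 and 2. The 4 other groups thus held mice at both levels, within groups treated alike, whereas each of the 2 groups compared held mice at 1 level. This was the condition for passing the test, so the arrangement in the compared groups themselves is given as a description.

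**Figure D4:**
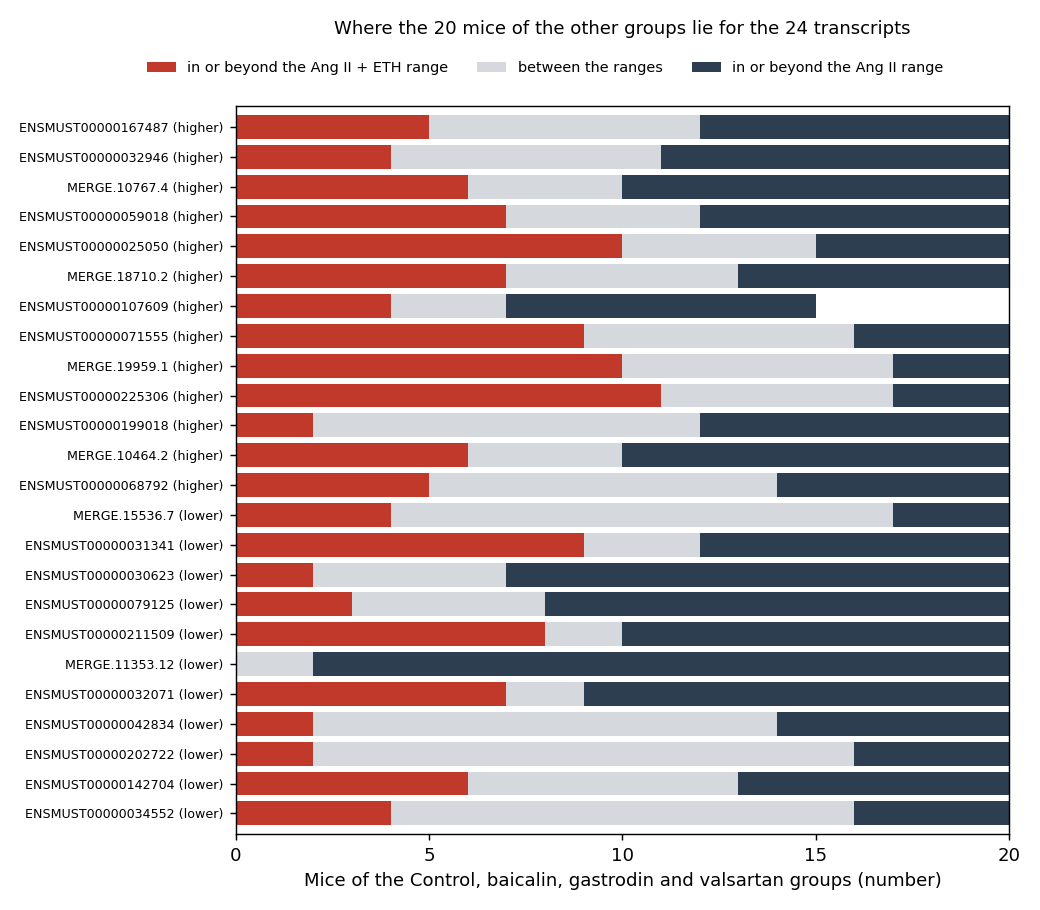
For each of the 24 transcripts (rows, the 13 higher ones above the 11 lower ones), the bar divides the mice of the Control, baicalin, gastrodin and valsartan groups by their level. Red counts mice in or beyond the Ang II + ETH range, grey those between the ranges and dark blue those in or beyond the Ang II range. Red and dark blue are both present in every row but MERGE.11353.12, which has 0, 2 and 18, and ENSMUST00000107609 has 15 mice because it was not listed for valsartan.

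The calls depended on which mice set the spread. With all 6 groups in one fit, where the spread between mice comes from all 30 hearts and the differences are the same, 5 of the 23 transcripts passed at an adjusted p under 0.05 in limma. All 5 were lower transcripts, namely MERGE.11353.12 (adjusted p = 0.0274), ENSMUST00000042834 (0.0274), ENSMUST00000034552 (0.0274), ENSMUST00000079125 (0.0438) and ENSMUST00000202722 (0.0438). None of the higher ones passed, with ENSMUST00000199018 nearest (adjusted p = 0.0530) and ENSMUST00000167487 at an adjusted p of 0.332 in limma. Without mouse 5 of the Ang II + ETH group, 4 higher and 5 lower transcripts passed, all 9 of them among the 24, and without mouse 5 of the Ang II group 19 higher and 21 lower passed. ENSMUST00000167487, ENSMUST00000032946, MERGE.10767.4, ENSMUST00000059018, MERGE.15536.7, ENSMUST00000031341, ENSMUST00000030623, ENSMUST00000079125 and ENSMUST00000211509 passed whichever of the 10 mice was left out. Of the other transcripts that passed with all 6 groups, MERGE.11353.12 passed in 9 of these 10 fits. ENSMUST00000042834 and ENSMUST00000202722 passed in 2 of them each, and ENSMUST00000034552 in 1.

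Set against Control, Ang II + ETH hearts had 22 higher (0.118%) and 20 lower transcripts (0.107%) of 18635 at an adjusted p under 0.05 in limma. Of the 24 transcripts, 23 were tested in this comparison, 2 passed the adjusted threshold (ENSMUST00000079125 and MERGE.11353.12) and 12 had an unadjusted p under 0.05, where 8.88% of all transcripts did. Set against the mean of the 3 other drug groups, 0 transcripts were higher and 2 lower (0.00875%) of 22858 at an adjusted p under 0.05, although the unadjusted p was under 0.05 for 800 higher (3.5%) and 583 lower ones (2.55%). Of the 24, 1 of 23 tested passed the adjusted threshold there, and 17 had an unadjusted p under 0.05 (6.05% of all). These counts share the Ang II + ETH mice with the comparison that chose the transcripts, so the members were bound to be frequent among them. Between Ang II and Control, 1 transcript was higher (0.00545%) and 6 lower (0.0327%) of 18354, and none of the 22 members tested was among the 7. At an unadjusted p under 0.05, 6 of the 22 differed between Ang II and Control, and 9.13% of all did. This comparison shares the Ang II mice with the one that chose the transcripts, so a raised count was bound to arise here too.

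The second transcript that set Ang II + ETH apart from the other drug groups was ENSMUST00000210642. It had 21.4, 13.0, 10.1, 9.21 and 10.6 FPKM in Ang II + ETH mice, against 23.8, 20.3, 19.8, 22.6 and 18.6 FPKM in BAI mice, 22.2, 22.3, 24.1, 23.7 and 21.1 FPKM in GAS mice and 26.1, 22.8, 24.4, 24.1 and 23.3 FPKM in VAL mice. The log2 difference from the mean of the 3 drug groups was -0.83 (SE 0.13, limma adjusted p = 0.0386). Mouse 1 of the Ang II + ETH group was within the range of the other drug groups and the other 4 were below it. In Ang II mice the level was 23.4, 25.8, 10.1, 26.3 and 25.2 FPKM and in Control mice 11.9, 26.5, 20.7, 8.48 and 25.8 FPKM, so that low mice were found in these groups as well. The difference from Ang II was -0.73 and did not pass (limma adjusted p = 0.539). The difference from the other drug groups passed in 3 of the 20 fits with 1 mouse left out, with adjusted p of up to 0.207 without Ang II + ETH mouse 3, and not with all 6 groups in one fit (limma adjusted p = 0.291).

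Of the 6 merged models among the 24, 5 belong to a locus with further listed models, as their names show, and the locus as a whole did not always follow the named model. In locus MERGE.15536 both models were lower in Ang II + ETH hearts, MERGE.15536.7 at 7.45 ± 0.730 FPKM against 19.0 ± 1.04 FPKM in Ang II hearts and MERGE.15536.6 at 19.3 ± 0.889 FPKM against 23.1 ± 0.840 FPKM (SD, n = 5 each). Their sum was 26.7 ± 1.35 FPKM in Ang II + ETH hearts and 42.1 ± 1.71 FPKM in Ang II hearts (SD, n = 5 each), a log2 difference of -0.64 that passed in the fit on summed loci (limma adjusted p = 0.00552). The sum of locus MERGE.18710 was 6.28 ± 0.859 FPKM in Ang II + ETH hearts and 2.05 ± 0.801 FPKM in Ang II hearts (SD, n = 5 each, log2 difference 1.29, limma adjusted p = 0.0265). Its second model, MERGE.18710.6, was at 0.990 ± 0.332 FPKM and 0.952 ± 0.367 FPKM and was not tested. The totals of these 2 loci thus differed in the direction of the named model. Each total includes that model, which was chosen for its difference, so the total is not separate support. MERGE.15536.6 by itself did not pass (log2 difference -0.25, limma adjusted p = 0.363).

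In the other 3 loci the total did not pass. At locus MERGE.11353, the model MERGE.11353.12 was low in Ang II + ETH hearts while MERGE.11353.9 was at 13.1 ± 8.79 FPKM in Ang II + ETH hearts and 3.50 ± 6.30 FPKM in Ang II hearts (SD, n = 5 each, log2 difference 2.05, limma adjusted p = 0.659). The sum of its 4 models was 16.0 ± 5.40 FPKM in Ang II + ETH hearts and 9.57 ± 6.31 FPKM in Ang II hearts (log2 difference 0.81, limma adjusted p = 0.633), so that the sum was not lower where MERGE.11353.12 was. At locus MERGE.10767, MERGE.10767.5 ranged from 0 to 4.19 FPKM in Ang II + ETH mice and from 0 to 11.8 FPKM in Ang II mice. The total ranged from 3.48 to 8.84 FPKM in Ang II + ETH mice and from 0 to 11.8 FPKM in Ang II mice, and the groups overlapped (limma adjusted p = 0.724). The sum of the 3 models of locus MERGE.10464 was 10.6 ± 1.10 FPKM in Ang II + ETH hearts and 7.16 ± 1.70 FPKM in Ang II hearts (SD, n = 5 each, log2 difference 0.52, limma adjusted p = 0.350). The model MERGE.19959.1 was the one listed for its locus.

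**Figure D5:**
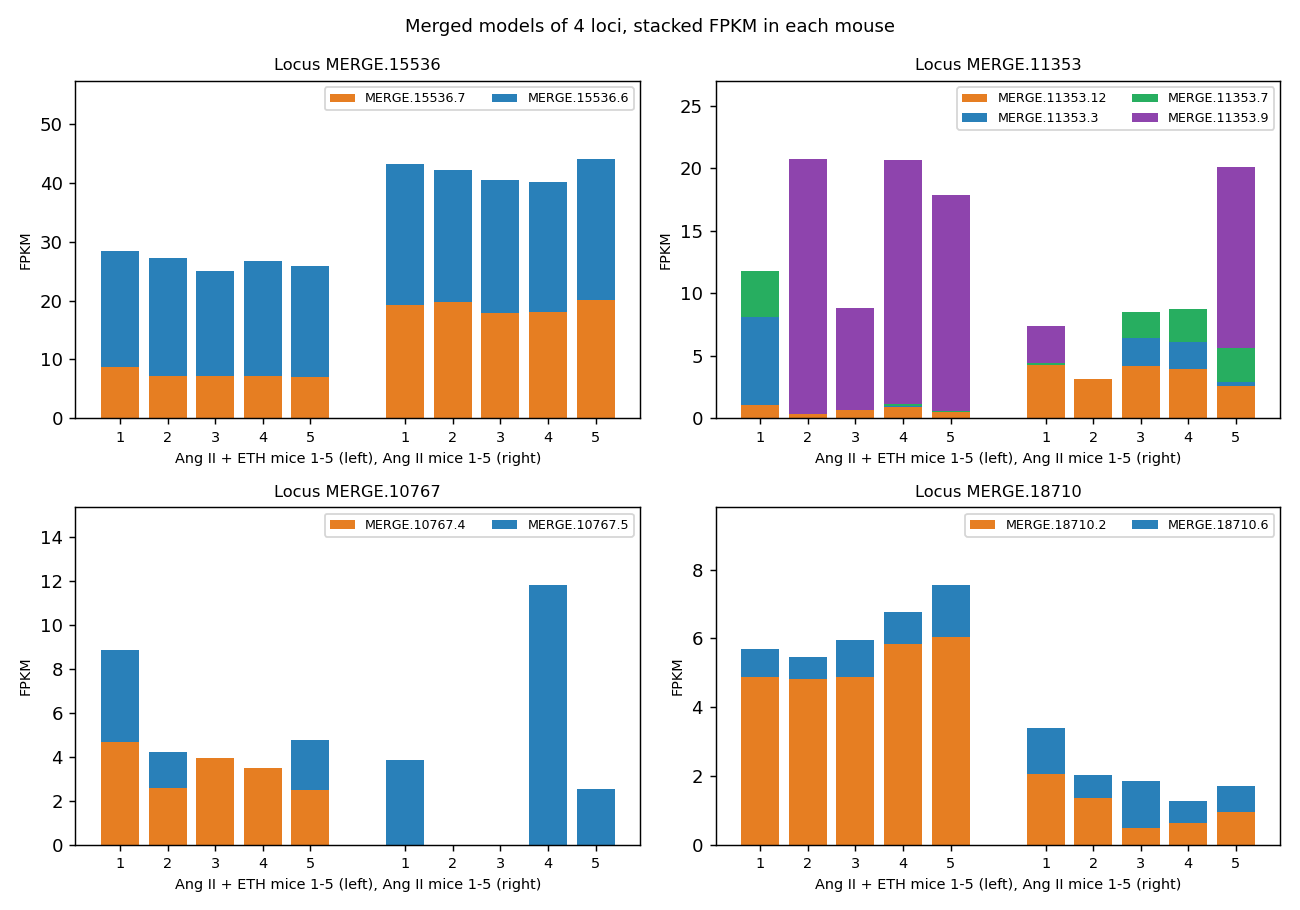
FPKM (vertical axes, linear from 0) of the merged models of 4 loci, stacked for each mouse, with the 5 Ang II + ETH mice on the left and the 5 Ang II mice on the right of each panel. The orange part is the model at an adjusted p under 0.05. The total heights do not overlap between the groups in loci MERGE.15536 (26.7 ± 1.35 against 42.1 ± 1.71 FPKM) and MERGE.18710, and they overlap in MERGE.11353 and MERGE.10767, where the orange part differs.

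The comparison could not reach transcripts listed for 1 of the groups only. The table of the Ang II + ETH group held 1801 transcripts that were not listed for the Ang II group, and 293 of these had a mean of 1 FPKM or more in Ang II + ETH hearts. None of the 1801 was at 1 FPKM or more in all 5 Ang II + ETH mice. Among the 293, 95 reached it in 1 mouse, 117 in 2, 66 in 3 and 15 in 4. The highest mean came from a single animal, as MERGE.24059.27 was at 10205 FPKM in Ang II + ETH mouse 1 and at 0.00377 FPKM or less in the other 4. In the opposite direction, 2201 transcripts were listed for Ang II and not for Ang II + ETH, and none had a mean of 0.5 FPKM or more in Ang II hearts. That none did follows from the filtering seen in the deposited tables. The Ang II + ETH table held no transcript under 0.5 on average in both that group and the Ang II group. The Ang II table held none under 0.5 in both Ang II and Control. Transcripts gained in Ang II + ETH hearts could thus be left out of the test, whereas those lost were kept. The 2 directions are therefore not comparable.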

How the data were processed

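Cardiac RNA depleted of ribosomal RNA was sequenced, and the authors deposited 1 table of transcript values per mouse. No unit is stated with the tables. The deposited values are fractional and add up to different sums in different libraries, so they were read as FPKM. Submitters' processing notes name limma and build mm10, and the aligner, assembler and annotation were not given in the sources used here. Filtering had been applied to the deposited tables, as no transcript of the Ang II + ETH table was under 0.5 on average in both that group and the Ang II group. Groups came from the labels, and each library was taken as 1 mouse.

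Differences in log2(FPKM + 1) were tested in limma 3.58.1 (R 4.3.3) by empirical Bayes with a trend on the mean, two-sided. A fit used only the groups compared and the transcripts that reached 1 FPKM in 5 or more libraries, with Benjamini-Hochberg adjustment across all of them. Intervals are at 95%. The Ang II + ETH group was also compared with Control and with the mean of the 3 other drug groups. Library measures were compared by exact permutation tests. A count model such as DESeq, which the authors name, was not used, as counts are not known. The test was checked on simulated data. Plots were made with matplotlib 3.10.9 under Python 3.11.15.

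Every transcript at an adjusted p under 0.05 was named, and the 8 of each direction with the largest difference, a mean of at least 1 in the higher group and no overlap were given mouse by mouse. The transcripts, rules and comparisons were chosen with earlier results of these data known. Other settings were quantile normalization, a common total, a pseudocount of 0.1, no filter, a mean of at least 5, no trend, all 6 groups in one fit, Ensembl transcripts alone, merged models summed per locus, a fold of 1.5 and each mouse left out. The counts at 100 FPKM or more under other scalings, and the single transcripts against Control and the other drugs under each setting, were added after seeing the data. Sequences were not analysed here, nor were protein, tissue and blood pressure measurements.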

Additional observations from a re-analysis of the deposited data

Results flagged for a closer look

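In 142 checks of the 24 transcripts within a group of 5 mice, 20 found 1 mouse far from the other 4, where chance flags about 1 in 20 groups. In the groups compared it was 1 of 47 checks, mouse 1 of the Ang II + ETH group for MERGE.15536.7 (8.74 FPKM). In the other groups it was 19 of 95 checks. Of 8 checks of library measures in the groups compared, 0 found such a mouse. The 24 transcripts were chosen by a test that favours a small spread within the 2 groups compared. Fewer flags in those groups than in the others were therefore bound to arise and are not a result. The checks share mice and are not independent. The share of such flags over all tested transcripts is not given here, so 19 of 95 cannot be called unusual for these 24.

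In Control, the mice apart were mouse 2 for ENSMUST00000167487 (42.0 FPKM) and ENSMUST00000034552 (38.7 FPKM), and mouse 4 for ENSMUST00000032946 (14.1 FPKM) and ENSMUST00000059018 (9.90 FPKM). In the BAI group they were mouse 4 for ENSMUST00000031341 (27.9 FPKM) and mouse 1 for ENSMUST00000079125 (18.2 FPKM). In the GAS group mouse 3 was high for ENSMUST00000167487 (33.9 FPKM), and mouse 2 was high for ENSMUST00000032946 (14.9 FPKM), ENSMUST00000199018 (5.96 FPKM) and ENSMUST00000211509 (6.13 FPKM). Mouse 1 of that group was high for ENSMUST00000107609 (1.64 FPKM) and ENSMUST00000068792 (4.65 FPKM) and low for ENSMUST00000030623 (6.79 FPKM). In the VAL group mouse 3 was high for ENSMUST00000167487 (16.3 FPKM) and low for ENSMUST00000068792 (0.572 FPKM), mouse 1 was high for ENSMUST00000059018 (7.87 FPKM) and ENSMUST00000025050 (23.9 FPKM), and mouse 4 was high for ENSMUST00000031341 (33.4 FPKM) and ENSMUST00000202722 (23.4 FPKM).

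MERGE.11353.12 stands out because the Ang II + ETH group differed from the mean of the 3 groups given another drug, by -1.49 on the log2 scale (limma adjusted p = 0.0176). The call was lost without Ang II + ETH mouse 2, 3 or 5 (limma adjusted p = 0.0815, 0.110 and 0.0736).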

How the results depend on the processing

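No paired analysis was possible because nothing in the labels links single mice across groups. At an adjusted p under 0.05 (limma), 13 transcripts were higher and 11 lower in Ang II + ETH than in Ang II hearts. These were 7 and 7 with a mean of at least 5, 2 and 8 with all 6 groups in one fit, and 11 and 7 after rescaling to the same total. Leaving out 1 mouse gave 4 to 19 higher and 5 to 21 lower, with the fewest without Ang II + ETH mouse 5 and most lower without Ang II mouse 5. A transcript had then to reach 1 FPKM in at least 4 libraries. Folds were taken on FPKM plus the pseudocount, not on FPKM itself. Past a fold of 2 at unadjusted p, the 176 higher and 166 lower were 294 and 255 with a pseudocount of 0.1, 54 and 66 with a mean of at least 5, and 380 and 372 at a fold of 1.5. No named transcript changed direction. Of those tested, 24 of 24 passed after quantile normalization, 18 of 24 after rescaling, 20 of 24 with a pseudocount of 0.1, 19 of 24 with no filter, 21 of 24 with no trend and 12 of 12 with a mean of at least 5.

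Against Control, the 22 higher and 20 lower were 46 and 37 after quantile normalization and 38 and 40 with all 6 groups in one fit, and 10 were lower with a mean of at least 5. Leaving out 1 mouse gave 10 to 22 higher and 11 to 21 lower, with 11, 12 and 10 higher without Ang II + ETH mice 1, 3 and 5, and 11, 13, 11 and 13 lower without mice 1, 2, 3 and 5. Against the 3 other drug groups, the 0 higher became 2 and the 2 lower became 1 with all 6 groups in one fit, and 1 was lower after rescaling, with a mean of at least 5 and with no trend. Leaving out 1 mouse gave 0 to 1 higher and 0 to 2 lower, with 0 lower without Ang II + ETH mouse 2, 3 or 5. The number of transcripts at 1 FPKM or more was higher in Ang II + ETH hearts by 532, but the difference was -4.2 at 5 FPKM or more and -55.2 over transcripts listed in all 30 libraries. The share of the 100 highest transcripts, -0.278 percentage points, lay between -1.25 and 0.970 points when 1 mouse was left out. It was positive without Ang II + ETH mouse 5 (0.970) and without Ang II mice 3 and 4 (0.0156 and 0.126). The causes were not tested. The unknown depth limits what can be said of transcripts near 1 FPKM.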
